A study of Mus musculus with 7 samples.

Results

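The p53 targets and CDK inhibitors described here are 31 genes, chosen by gene symbol from a fixed list and all present among the 22680 genes of the expression table. They comprise Trp53 itself, its regulators Mdm2 and Mdm4, 6 inhibitors of cyclin-dependent kinases (CDKs) and genes that p53 is known to activate in arrest, apoptosis, metabolism and DNA repair. RNA was sequenced from blood-forming cells of C57BL/6 fetal livers at 13.5 days post coitum, with Uhrf1-/- LSK cells in 3 libraries, wild-type LSK cells in 3 and, without a replicate, wild-type LK cells in 1. The LSK cells were double-sorted, per the labels. The LSK gate takes lineage-negative cells with both Sca-1 and c-Kit at the surface and holds stem cells and multipotent progenitors, while LK cells have c-Kit without Sca-1 and are more advanced. The labels give the genotype as Uhrf1-/- and name no Cre driver, and the sources used here do not give the number of fetuses behind a library.

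p53 is a transcription factor whose protein is kept scarce by the ubiquitin ligase Mdm2 and held inactive by its relative Mdm4. DNA damage and other stresses stabilise the protein, largely without a change in its mRNA, and it then switches on arrest genes such as Cdkn1a, death genes, repair genes and, as a feedback, Mdm2. CDK inhibitors of the CIP/KIP family (p21, p27, p57) bind cyclin-CDK complexes, and those of the INK4 family (p16, p15, p18, p19) bind Cdk4 and Cdk6. In blood-forming tissue several of them are known to limit the division of stem cells. Uhrf1 binds hemimethylated DNA and brings Dnmt1 to newly replicated strands.

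The libraries held an estimated 16808525 to 25803006 reads. Uhrf1 had 10.2, 8.78 and 18.6 FPKM in the Uhrf1-/- replicates, against 63.0, 66.8 and 113 FPKM in the wild-type LSK replicates, where FPKM counts fragments relative to transcript length and sequencing depth. It fell with limma (log2 fold change -2.62, adjusted p = 0.018). Ly6a, which encodes Sca-1, had 36.9 to 96.4 FPKM in Uhrf1-/- and 26.4 to 56.8 FPKM in wild-type LSK libraries, against 0.321 FPKM in the LK library. It was the 1 of 7 LSK markers with a positive log2 fold change, and the 7 had a median of -0.55. Flt3, Hlf, Cd34 and Kit did not overlap between genotypes and were at -1.73, -0.81, -0.75 and -0.55 (Uhrf1-/- minus wild-type), of which Flt3 fell in the limma fit with the replicate number as a block (adjusted p = 0.00044). Of the 2 lymphoid markers tested, Il7r fell in the same limma fit (log2 fold change -1.52, adjusted p = 0.0046) and Cd79a was at 0.005. The part of these markers in the results was not tested. Replicate 3 stood apart in both genotypes: 16 immediate-early genes, which respond to handling of cells, summed to 202 FPKM in Uhrf1-/- replicate 3 and 132 FPKM in wild-type replicate 3, and to 1788 FPKM or more in the other 4 LSK libraries. Ribosomal protein genes held 4.48% of all count values in wild-type replicate 2, against 10.1% to 14.8% in the other 6 libraries. The 9 macrophage markers, of which C1qa, C1qc, Vcam1, Cd5l and Marco were listed at 0 in at least 1 LSK library, summed to 14.98 to 51.6 FPKM in Uhrf1-/- and 15.4 to 160 FPKM in wild-type LSK libraries.

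Uhrf1-/- LSK cells were set against wild-type LSK cells to ask whether loss of Uhrf1 changes the RNA of these genes. No broad shift of the set was measured. Of the 31 genes, 19 had a mean of at least 1 FPKM over the 6 LSK libraries and were tested, and 0 of the 19 passed an adjusted limma p of 0.05, with 4 at an unadjusted limma p under 0.05. Over all 10608 genes tested, 0.17% passed, 0.113% as higher and 0.0566% as lower in Uhrf1-/- cells, and 5.57% had such an unadjusted p. The lowest adjusted p among the 19 was 0.300, for Perp. Their log2 fold changes, on the log2(FPKM + 1) scale and Uhrf1-/- minus wild-type, were positive for 8 and negative for 11 genes, with a median of -0.12, and the median of all genes tested was -0.03. The median of the 19 was 0.05, -0.35 and 0.03 in replicate pairs 1, 2 and 3. That of all genes tested was -0.009, -0.054 and -0.053. The part of the low ribosomal protein share of wild-type replicate 2 in the value of pair 2 was not tested.

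With the replicate number as a block in the limma fit, 1 of the 19 genes passed. This was Perp, which was higher in Uhrf1-/- cells, and 7 had an unadjusted limma p under 0.05. Over all genes the blocked fit called 2.06%, 1.23% as higher and 0.83% as lower in Uhrf1-/- cells, and 12.0% had such an unadjusted p. The values of the 2 genotypes did not overlap for 4 of the 19, Perp and Aen being higher and Xpc and Sesn1 lower in Uhrf1-/- cells, and this held for 10.8% of all genes, 4.61% being higher and 6.16% lower. In all 3 pairs 6 of the 19 were higher and 6 lower in Uhrf1-/- cells, and over all genes 32.2% had the same direction in all 3, 13.9% being higher and 18.3% lower. In bulk RNA a lower level in each cell and a smaller share of expressing cells cannot be told apart.

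**Figure D1:**
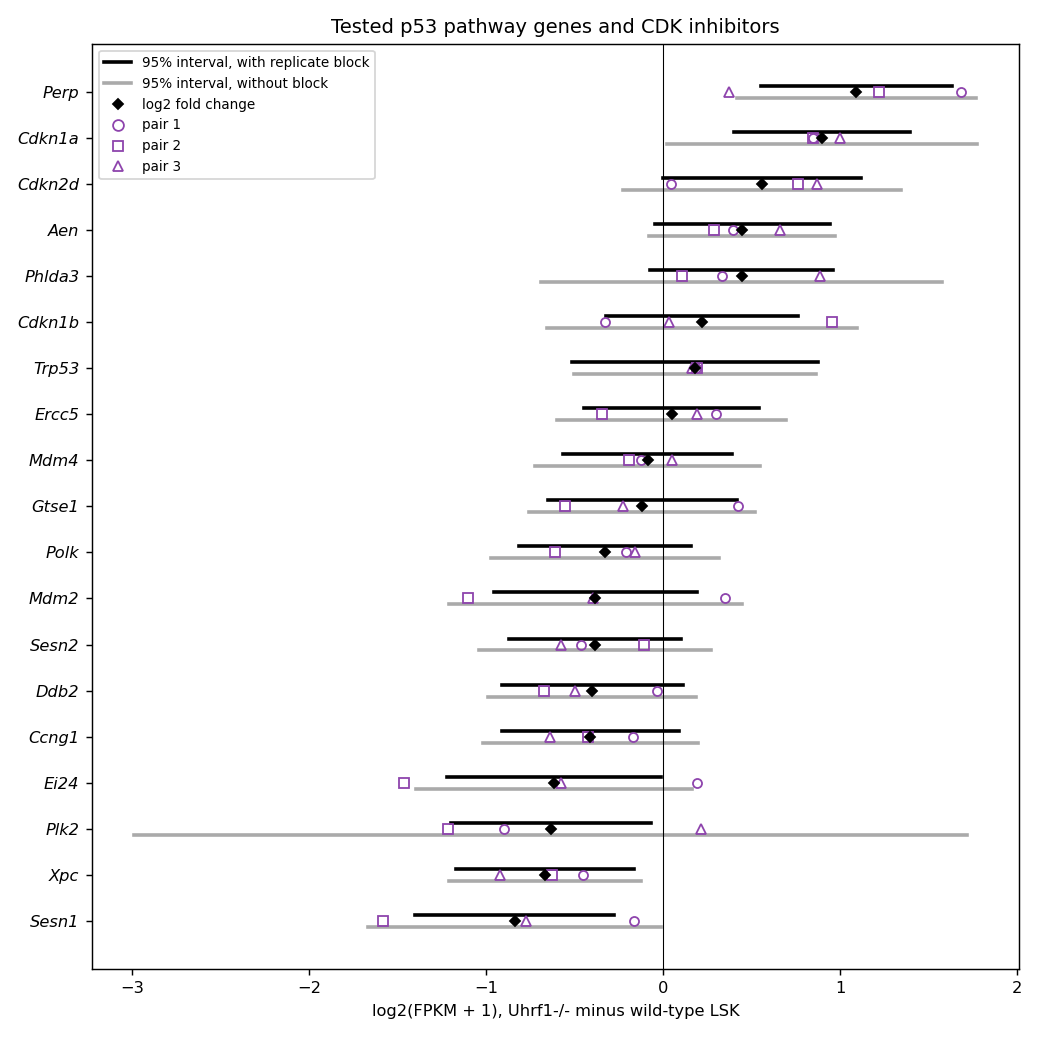
Difference in log2(FPKM + 1) between Uhrf1-/- and wild-type LSK cells for the 19 tested genes, with the difference in each replicate pair (open symbols), the log2 fold change (diamonds) and its 95% interval in the limma fit with the replicate block (black) and without it (grey). Perp and Cdkn1a lie at the top with all pairs above 0, Xpc and Sesn1 at the bottom with all pairs below 0, and most other intervals include 0.

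Among the CIP/KIP inhibitors, Cdkn1a and Cdkn1b belong to the list and were both detected. Cdkn1c, which encodes p57 and is outside the list, was more abundant than either in each LSK library. It had 52.1, 62.0 and 37.1 FPKM in Uhrf1-/- replicates, against 51.7, 54.0 and 21.2 FPKM in the wild-type LSK replicates. Its log2 fold change was 0.33 (limma adjusted p = 0.9425). Cdkn1a (Entrez gene 12575, protein-coding, GRCm38 chromosome 17, 29090979 to 29100722) encodes p21, the classical arrest target of p53. It had 14.0, 10.7 and 5.83 FPKM in Uhrf1-/- replicates 1, 2 and 3, against 7.34, 5.49 and 2.41 FPKM in the wild-type LSK replicates. The Uhrf1-/- library was the higher one in every pair, while the groups overlapped because both genotypes were lowest in replicate 3. The mean was 10.2 ± 4.11 FPKM in Uhrf1-/- cells and 5.08 ± 2.49 FPKM in wild-type cells (SD, n = 3 each). The log2 difference was 0.85, 0.84 and 1.0 in the 3 pairs, with a log2 fold change of 0.90 (SE 0.39, limma adjusted p = 0.885). The 95% interval of the log2 fold change was 0.02 to 1.77 without the block and 0.40 to 1.39 with it, and the blocked adjusted p was 0.055. With median-of-ratios scaling the blocked adjusted p was 0.049, and over the other blocked settings it ran from 0.045 without pair 1 to 0.466 without pair 3. The estimated reads behind these values were 220 to 458 in Uhrf1-/- and 125 to 228 in wild-type libraries. In the reference annotation 7.68% of the exon bases of Cdkn1a are also covered by a gene on the opposite strand, and the strand setting of the counting is not known here.

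Cdkn1a is shown with its upstream start because this window held the only full p53 site found among the windows of these genes. RefSeq windows of 250 bases before to 50 after a start (GRCm38.p6) matched 24 of the 31 genes, with 33 windows. The p53 half-site, a motif of 10 letters that reads alike on both strands, was searched in each, as was the full site of 2 half-sites with at most 13 bases between them. A half-site was found in 11 of the 33 windows and in 8.36% of all 32851 windows, and a full site in 1 of the 33 and in 0.0731% of all. The windows of Aen overlap and hold the same half-site, which was counted in each. The single full site found lies at the upstream start of Cdkn1a, chr17:29090729-29091028 on the plus strand. No mismatch was allowed, and the 10 bases right after its half-site at -51 miss the motif at their first letter alone. They were thus not counted as a half-site. The 2 half-sites that were counted begin at -73 and -51 from the start, with 12 bases between them. They are in capitals:
Cdkn1a, upstream start: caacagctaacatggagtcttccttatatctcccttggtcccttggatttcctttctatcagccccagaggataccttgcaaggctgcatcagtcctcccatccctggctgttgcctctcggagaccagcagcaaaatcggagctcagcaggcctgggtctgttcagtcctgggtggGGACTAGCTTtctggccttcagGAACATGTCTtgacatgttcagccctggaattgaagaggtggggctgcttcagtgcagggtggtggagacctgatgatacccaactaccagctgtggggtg
The window at the downstream start of Cdkn1a, on the plus strand at chr17:29093519-29093818, had 0 half-sites.

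Half-sites, again in capitals, were also present at starts of Aen, Cdkn2d, Ei24 and Sesn1. These are the other genes with a half-site that had an unadjusted p under 0.05 in either fit or genotypes that did not overlap, and are shown so that the matches of genes that were higher and lower in Uhrf1-/- cells can be set side by side. The stretches are chr7:78895912-78895971 (plus strand), chr9:21291277-21291336 (minus), chr9:36797310-36797369 (minus) and chr10:41887241-41887300 (plus).
Aen: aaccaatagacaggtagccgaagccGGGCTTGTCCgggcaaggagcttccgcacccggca
Cdkn2d: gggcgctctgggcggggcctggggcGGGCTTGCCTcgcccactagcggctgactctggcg
Ei24: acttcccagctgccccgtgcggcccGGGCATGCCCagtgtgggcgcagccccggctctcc
Sesn1: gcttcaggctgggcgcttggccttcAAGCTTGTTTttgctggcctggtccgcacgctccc
Aen and Cdkn2d had positive and Ei24 and Sesn1 negative log2 fold changes. The core CATG, which is part of some but not all half-sites, was in 10 of the 33 windows and in 61.1% of all. The windows of these genes held a median of 21 CG dinucleotides, against 7 over all windows. Binding and DNA methylation were not measured, so these matches are descriptions of sequence.

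Cdkn1b encodes p27, which is known mainly for control at the protein level. It had 2.50, 2.95 and 5.06 FPKM in Uhrf1-/- and 3.40, 1.04 and 4.92 FPKM in wild-type LSK replicates 1, 2 and 3, with a log2 fold change of 0.22 (95% interval -0.66 to 1.09, limma adjusted p = 0.955). Replicate 3 was highest in both genotypes, the reverse of Cdkn1a. The level of Cdkn1a was thus 5.60, 3.61 and 1.15 times that of Cdkn1b in Uhrf1-/- libraries and 2.16, 5.28 and 0.490 times in wild-type LSK libraries.

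The INK4 family was represented almost wholly by Cdkn2d. Cdkn2a was listed at 0 in all 7 libraries, and Cdkn2b in all 6 LSK libraries, with 0.0439 FPKM from 1 estimated read in the LK library. Cdkn2a encodes p16 and, from another reading frame, p19Arf, an inhibitor of Mdm2, and Cdkn2b encodes p15. A count of 0 allows up to 3 reads in a library, for counting error only, and 20 genes that every cell uses were above 0 throughout. RNA of either gene was thus not detectable in Uhrf1-/- LSK cells at this depth. Cdkn2a has RefSeq starts with 45 and 12 CG dinucleotides in their windows, and the start of Cdkn2b has 18.

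Cdkn2c, which encodes p18, was near the detection limit in LSK cells. It had 0.850, 0.444 and 0.227 FPKM in Uhrf1-/- replicates, against 0.146 and 0.364 FPKM in wild-type LSK replicates 1 and 2 and a listing at 0 in replicate 3. These values rest on 6 to 19 estimated reads in Uhrf1-/- and 0 to 10 in wild-type libraries, and the gene was not tested. The Uhrf1-/- library was the higher one in each pair, and the groups overlapped.

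Cdkn2d, which encodes the INK4 protein p19Ink4d, was far more abundant. It had 114, 108 and 80.4 FPKM in Uhrf1-/- replicates, against 110, 63.1 and 43.6 FPKM in the wild-type LSK replicates. Replicate 1 was alike in both genotypes, and the Uhrf1-/- library was higher in pairs 2 and 3. The mean was 101 ± 17.8 FPKM in Uhrf1-/- and 72.3 ± 34.2 FPKM in wild-type cells (SD, n = 3 each), with a log2 fold change of 0.56 (SE 0.35, limma adjusted p = 0.942, blocked adjusted p = 0.414). It was 0.91 without wild-type replicate 1 and 0.25 without wild-type replicate 3. Its level per length was 8.12 to 13.8 times that of Cdkn1a in Uhrf1-/- libraries and 11.5 to 18.1 times in wild-type LSK libraries, so that it was the leading CDK inhibitor of the list in each.

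**Figure D2:**
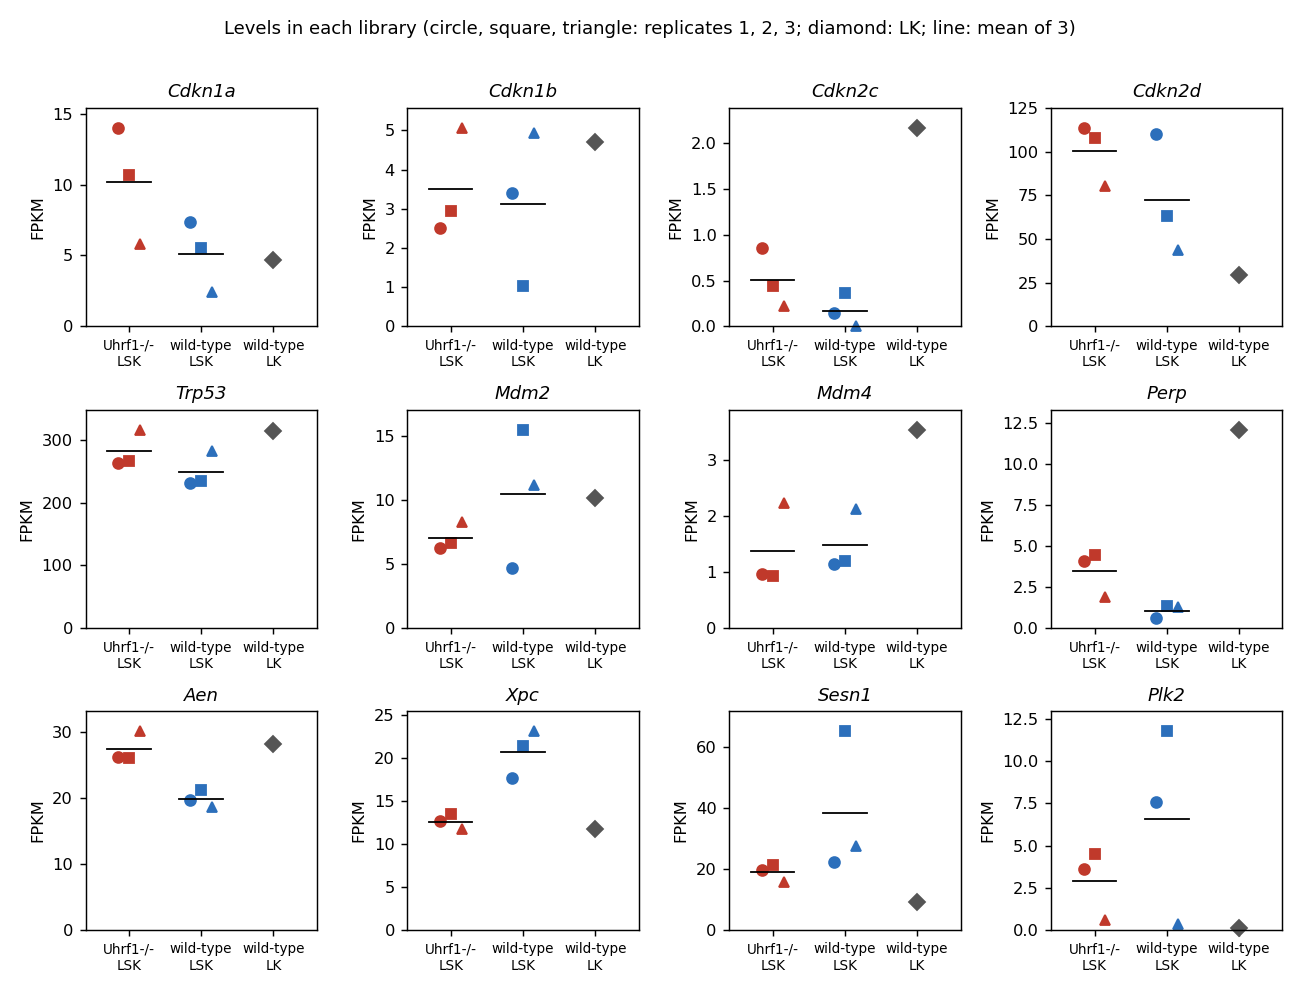
FPKM in each library (y axis, from 0) for 12 of the genes, with Uhrf1-/- LSK in red, wild-type LSK in blue and wild-type LK in grey. Symbols mark replicates and lines the mean of 3. The genotypes do not overlap for Perp, Aen, Xpc and Sesn1, and Cdkn1a and Plk2 are lowest in replicate 3 of both genotypes.

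Trp53 (Entrez gene 22059, GRCm38 chromosome 11, 69580348 to 69591873) was the most abundant of the 31 genes. It had 263, 267 and 317 FPKM in Uhrf1-/- replicates, against 232, 234 and 283 FPKM in the wild-type LSK replicates, above a mean of 97.6% of all genes in the table. The Uhrf1-/- library was slightly higher in each pair, and the groups overlapped. The log2 fold change was 0.18 (95% interval -0.51 to 0.86, limma adjusted p = 0.953, blocked adjusted p = 0.867), so that a doubling of Trp53 RNA lay outside the interval. A processed pseudogene of Trp53 is annotated in the reference, and how shared reads were counted is not known here.

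Mdm2, the ligase that p53 itself activates, had 6.21, 6.67 and 8.25 FPKM in Uhrf1-/- replicates, against 4.66, 15.5 and 11.2 FPKM in the wild-type LSK replicates. The Uhrf1-/- values lay inside the wild-type range. The log2 difference was 0.35, -1.10 and -0.40 in the 3 pairs, with a log2 fold change of -0.38 (SE 0.38, limma adjusted p = 0.942). This fold change was -0.82 without wild-type replicate 1 and -0.053 without wild-type replicate 2. Mdm4 had 0.966, 0.923 and 2.23 FPKM in Uhrf1-/- and 1.14, 1.20 and 2.12 FPKM in wild-type LSK replicates, with a log2 fold change of -0.09 (SE 0.29, limma adjusted p = 0.976). It was highest in replicate 3 of both genotypes.

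Of the genes known for roles in cell death or at the cell surface, Perp had the lowest p. Perp (Entrez gene 64058, GRCm38 chromosome 10, 18845071 to 18857073) encodes a tetraspan membrane protein of desmosomes that p53 activates during apoptosis. It had 4.11, 4.46 and 1.93 FPKM in Uhrf1-/- replicates, against 0.587, 1.34 and 1.27 FPKM in the wild-type LSK replicates. All Uhrf1-/- values were above all wild-type values, and the gap was smallest in pair 3. The mean was 3.497 ± 1.37 FPKM in Uhrf1-/- and 1.06 ± 0.415 FPKM in wild-type cells (SD, n = 3 each). The log2 fold change was 1.09 (SE 0.31, limma adjusted p = 0.300), and Perp rose in the blocked fit (SE 0.26, adjusted p = 0.028, higher in 3 of 3 pairs). The blocked adjusted p was 0.107 without pair 1, 0.456 without pair 2 and 0.000451 without pair 3, and with no filter on low values it was 0.490. Since the scale adds 1 FPKM, the value understates the change of a gene at this level, and on the count values the log2 fold change was 1.75 (blocked adjusted p = 0.024). Perp was highest of all in the LK library, at 12.1 FPKM. The 7 erythroid markers summed to 56.7 to 88.0 FPKM in Uhrf1-/- LSK, 21.7 to 139 FPKM in wild-type LSK and 1330 FPKM in LK cells, with Slc4a1 among those listed at 0 in at least 1 LSK library. In wild-type replicate 1 Hba-a1 alone had 79.5 FPKM of the sum. Of the 7 markers 5 were tested, with 2 positive and 3 negative log2 fold changes and a median of -0.19. The 2 positive ones, Epor and Klf1, were, like Perp, above all wild-type LSK values in each Uhrf1-/- library. Epor rose in the blocked fit (log2 fold change 1.59, adjusted p = 0.027), with 14.7 to 15.3 FPKM in Uhrf1-/- and 1.38 to 8.89 FPKM in wild-type LSK libraries. Klf1 had 33.6 to 38.9 FPKM in Uhrf1-/- and 2.25 to 27.1 FPKM in wild-type LSK libraries (log2 fold change 1.55, blocked adjusted p = 0.559). Tfrc had 2.64 to 3.01 FPKM in Uhrf1-/- and 4.03 to 5.71 FPKM in wild-type LSK libraries, the other direction. The 5 mature myeloid markers also had their highest sum in LK cells, at 2119 FPKM. They summed to 552 to 594 FPKM in Uhrf1-/- and 658 to 805 FPKM in wild-type LSK libraries. Of these markers 4 were tested, all with negative log2 fold changes and a median of -1.32. S100a8 fell in the blocked limma fit (log2 fold change -2.80, adjusted p = 0.014). The part of the erythroid and myeloid markers in the value of Perp was not tested.

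Aen, an exonuclease of p53-dependent apoptosis, had 26.1, 26.0 and 30.1 FPKM in Uhrf1-/- replicates, against 19.7, 21.1 and 18.7 FPKM in the wild-type LSK replicates. The groups did not overlap and each varied little, with means of 27.4 ± 2.31 FPKM in Uhrf1-/- and 19.8 ± 1.24 FPKM in wild-type cells (SD, n = 3 each). The log2 fold change of 0.45 (SE 0.24) did not pass (limma adjusted p = 0.942, blocked adjusted p = 0.481).

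Phlda3, an inhibitor of Akt that p53 induces, had 9.12, 8.82 and 3.77 FPKM in Uhrf1-/- replicates, against 7.04, 8.11 and 1.57 FPKM in the wild-type LSK replicates. The Uhrf1-/- library was higher in each pair and both genotypes were lowest in replicate 3 (log2 fold change 0.44, SE 0.50, limma adjusted p = 0.943, and -0.13 without wild-type replicate 3). Ei24, an endoplasmic reticulum protein of growth suppression and autophagy, had 16.0, 13.04 and 11.9 FPKM in Uhrf1-/- and 13.9, 37.7 and 18.2 FPKM in wild-type LSK replicates. Its log2 fold change of -0.62 (SE 0.35, limma adjusted p = 0.942) was -0.22 without wild-type replicate 2, the high value, and -0.91 without wild-type replicate 1.

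The death receptor genes were barely expressed and were not tested. Fas had 0.136 to 0.864 FPKM in Uhrf1-/- and 0 to 0.760 FPKM in wild-type LSK libraries. Tnfrsf10b, the mouse TRAIL receptor, had 0.700 to 1.05 FPKM in Uhrf1-/- and 0.905 to 1.19 FPKM in wild-type LSK libraries. Eda2r, the receptor of ectodysplasin A2, had 0 to 0.120 FPKM in Uhrf1-/- and 0.0195 to 0.239 FPKM in wild-type LSK libraries. In all 3 genes the genotypes overlapped.

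Trp53inp1, which promotes p53-dependent death and autophagy, was low but separated the genotypes. It had 0.197, 0.193 and 0.297 FPKM in Uhrf1-/- replicates, against 0.415, 0.759 and 0.552 FPKM in the wild-type LSK replicates, from 35 to 65 estimated reads in Uhrf1-/- and 64 to 152 in wild-type libraries. The gene was below the minimum for testing. Of the 12 genes not tested, it was the 1 whose genotypes did not overlap. The share of all genes below the minimum without overlap was not counted. Zmat3, an RNA-binding protein that p53 induces, had 0.178 to 0.279 FPKM in Uhrf1-/- and 0.179 to 0.372 FPKM in wild-type LSK libraries. Gdf15, a secreted stress cytokine, had 0 to 1.18 FPKM in Uhrf1-/- and 0.292 to 1.16 FPKM in wild-type LSK libraries.

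Among genes of arrest, growth and metabolism, neither of the sestrins, which restrain mTORC1 under stress, passed in the fit with or without the block. Sesn1 had 19.7, 21.1 and 15.6 FPKM in Uhrf1-/- replicates, against 22.2, 65.2 and 27.4 FPKM in the wild-type LSK replicates. The groups did not overlap, but wild-type replicate 2 alone was far above the rest. The mean was 18.8 ± 2.87 FPKM in Uhrf1-/- and 38.2 ± 23.5 FPKM in wild-type cells (SD, n = 3 each), and the log2 fold change of -0.84 (SE 0.37, limma adjusted p = 0.893, blocked adjusted p = 0.147) was -0.38 without that library and -1.14 without wild-type replicate 1. Sesn2 had 1.19 to 2.92 FPKM in Uhrf1-/- and 2.26 to 3.87 FPKM in wild-type LSK libraries with the genotypes overlapping (log2 fold change -0.38, limma adjusted p = 0.942, blocked adjusted p = 0.548).

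Ccng1, a cyclin that p53 induces and that acts on Mdm2 through a phosphatase, had 3.46 to 5.35 FPKM in Uhrf1-/- and 4.74 to 7.52 FPKM in wild-type LSK libraries, lower in each pair (log2 fold change -0.41, SE 0.28, limma adjusted p = 0.942). Gtse1, a microtubule-associated protein that restrains p53 in G2, had 10.5 to 16.5 FPKM in Uhrf1-/- and 12.0 to 19.3 FPKM in wild-type LSK libraries (log2 fold change -0.12, limma adjusted p = 0.967). Ddit4, an inhibitor of mTORC1, had 0.0456 to 0.360 FPKM in Uhrf1-/- and 0.198 to 0.609 FPKM in wild-type LSK libraries and was not tested.

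The polo-like kinases Plk2 and Plk3 respond to stress and are also immediate-early genes. Plk2 had 3.61, 4.51 and 0.572 FPKM in Uhrf1-/- replicates, against 7.61, 11.8 and 0.358 FPKM in the wild-type LSK replicates. In pairs 1 and 2 the Uhrf1-/- library was the lower one, and both libraries of pair 3 were under 1 FPKM. The log2 fold change was -0.64 (SE 0.96, limma adjusted p = 0.949, blocked adjusted p = 0.347), and leaving out 1 library gave values from -1.62 without wild-type replicate 3 to -0.00086 without wild-type replicate 2. Plk3 was not tested and had 0.208 to 0.557 FPKM in Uhrf1-/- and 0.0218 to 0.852 FPKM in wild-type LSK libraries.

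Of the DNA repair genes, Xpc separated the genotypes. Xpc (Entrez gene 22591, GRCm38 chromosome 6, 91489305 to 91515888) encodes the damage sensor that starts global-genome nucleotide excision repair. It had 12.6, 13.4 and 11.7 FPKM in Uhrf1-/- replicates, against 17.6, 21.3 and 23.1 FPKM in the wild-type LSK replicates. Each Uhrf1-/- value was below each wild-type value. Replicate 3 held the lowest Uhrf1-/- and the highest wild-type value. The log2 difference was -0.45, -0.63 and -0.92 in pairs 1, 2 and 3. The mean was 12.6 ± 0.872 FPKM in Uhrf1-/- and 20.7 ± 2.79 FPKM in wild-type cells (SD, n = 3 each). The log2 fold change of -0.67 (SE 0.25, lower in 3 of 3 pairs) did not pass (limma adjusted p = 0.698, blocked adjusted p = 0.218), and leaving out any 1 library or pair kept it between -0.78 and -0.54.

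Ddb2, the partner of Xpc in recognising ultraviolet damage, had 5.25 to 6.70 FPKM in Uhrf1-/- and 6.47 to 9.88 FPKM in wild-type LSK libraries, lower in each pair (log2 fold change -0.40, SE 0.27, limma adjusted p = 0.942). Of its annotated exon bases 23.8% are shared with Acp2 on the opposite strand, a gene at 1.82 to 2.34 FPKM in Uhrf1-/- and 2.93 to 2.99 FPKM in wild-type LSK libraries. Ercc5, the nuclease of the same repair pathway, had 1.70 to 3.67 FPKM in Uhrf1-/- and 1.60 to 3.08 FPKM in wild-type LSK libraries (log2 fold change 0.05, limma adjusted p = 0.988). Polk, a translesion polymerase, had 0.413 to 1.62 FPKM in Uhrf1-/- and 0.987 to 1.93 FPKM in wild-type LSK libraries (log2 fold change -0.33, limma adjusted p = 0.942). Rrm2b, the p53-induced subunit of ribonucleotide reductase, had 0.523 to 0.714 FPKM in Uhrf1-/- and 0.578 to 1.04 FPKM in wild-type LSK libraries and was not tested.

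Genes next to this set in the same pathways gave 0 calls, where the fits without and with the block called 0.17% and 2.06% of all genes. Of 19 other p53 target genes in the table, 15 were tested and 0 passed with limma without or with the block, with 2 and 3 at an unadjusted limma p under 0.05 and a median log2 fold change of 0.06. Of 16 genes of the p53 family, its kinases and modifiers, 14 were tested and 0 passed in either limma fit, with 0 at an unadjusted p under 0.05 and a median of 0.07. Of 23 CDKs, cyclins, pocket proteins, E2F factors and further CDK regulators, 22 were tested and 0 passed in either limma fit, with 0 and 1 at an unadjusted p under 0.05 and a median of 0.03. The log2 fold changes of these 3 lists ran from -0.90 to 0.58, from -0.45 to 0.25 and from -0.54 to 0.73.

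As among all genes tested, several of these genes differed between replicate numbers in the same direction in both genotypes. Replicate 3 was the lowest library of both genotypes for 5 of the 19 tested genes and the highest of both for 6, and over all genes tested these shares were 21.8% and 21.0%. The 5 were Plk2, Phlda3, Cdkn1a, Cdkn2d and Sesn2. Plk2 differed by -1.68 in Uhrf1-/- and -2.95 in wild-type cells (log2, replicate 3 minus the mean of replicates 1 and 2), Phlda3 by -1.06 in Uhrf1-/- and -1.73 in wild-type cells, and Cdkn1a by -0.95 in Uhrf1-/- and -1.11 in wild-type cells. The 6 were Cdkn1b, Trp53, Mdm4, Polk, Ddb2 and Ercc5, of which Cdkn1b differed by 0.71 in Uhrf1-/- and 0.98 in wild-type cells. All 14 tested immediate-early genes were lowest in replicate 3 of both genotypes, with a median of -3.34 in Uhrf1-/- and -4.42 in wild-type cells. Their part in the values of the 5 genes was not tested.

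**Figure D3:**
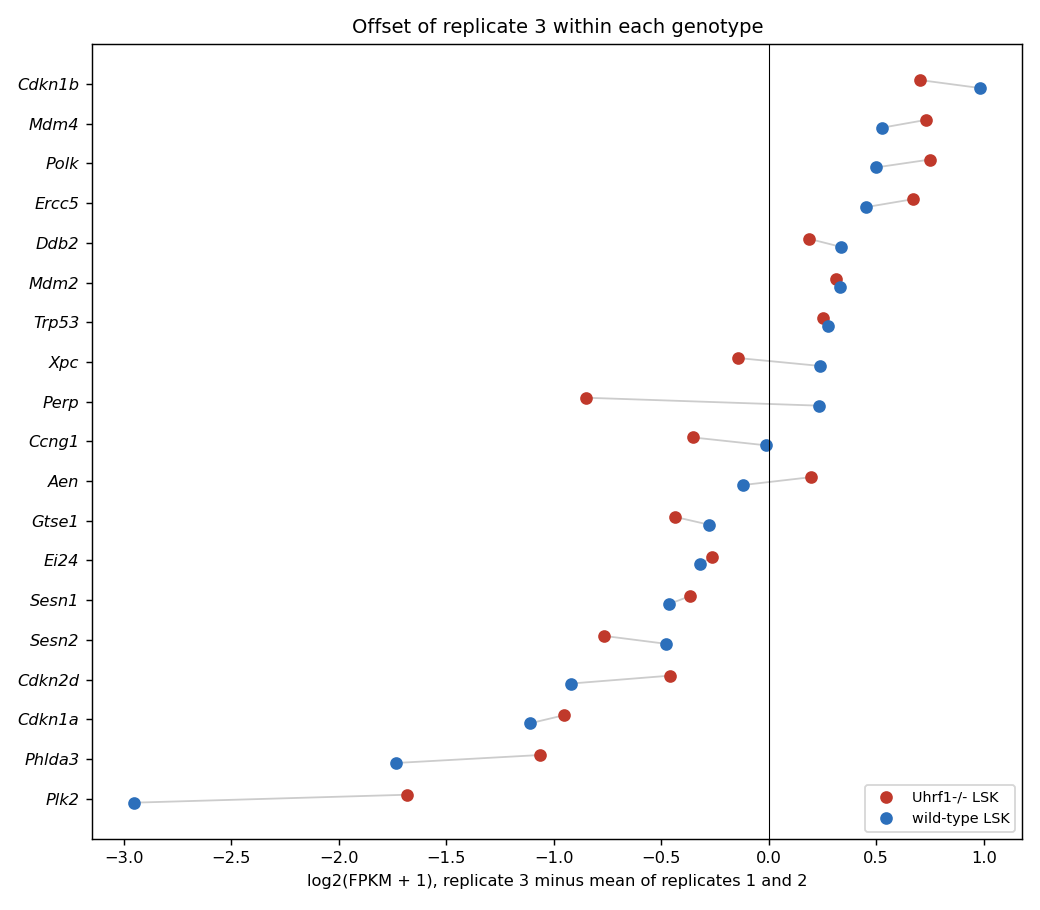
Offset of replicate 3 from the mean of replicates 1 and 2 in log2(FPKM + 1), in Uhrf1-/- LSK (red) and wild-type LSK cells (blue), for the 19 tested genes. Plk2, Phlda3 and Cdkn1a lie at the bottom with offsets from -0.95 to -2.95 in both genotypes, and Cdkn1b at the top.

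The LK library was set against the 3 wild-type LSK libraries to show where these genes stand in more advanced wild-type progenitors. With 1 LK library there is no test. The 16 immediate-early genes summed to 71.9 FPKM in the LK library. In wild-type LSK replicates 1, 2 and 3 they summed to 2111, 2471 and 132 FPKM. The part of this difference in the values that follow was not tested. Of 21 genes with at least 1 FPKM in LK cells or as the mean of wild-type LSK cells, 8 lay above the wild-type LSK range, 7 below and 6 within it, while over all such genes 34.6% lay above, 29.9% below and 35.5% within. Perp, at 12.1 FPKM, was 11.4 times the wild-type LSK mean, Cdkn2c had 2.17 FPKM from 51 estimated reads, against at most 10 reads in a wild-type LSK library, and Ccng1 had 16.3 FPKM, against 4.74 to 7.52 FPKM in wild-type LSK libraries. Mdm4, Aen, Ercc5, Trp53 and Sesn2 were also above the range, with 1.26 to 2.38 times the wild-type LSK mean.

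Plk2 was the furthest below, at 0.105 FPKM in LK cells, against 0.358 to 11.8 FPKM in wild-type LSK libraries. Sesn1 had 9.27 FPKM in LK cells, against 22.2 to 65.2 FPKM in wild-type LSK libraries, and Cdkn2d had 29.2 FPKM, against 43.6 to 110 FPKM. Xpc, Ddb2, Tnfrsf10b and Gtse1 were also below. Cdkn1a, at 4.72 FPKM, Cdkn1b, also at 4.72 FPKM, and Mdm2, at 10.1 FPKM, lay within the range. Cdkn1a and Cdkn1b were thus equal in LK cells. The CIP/KIP gene outside the list, Cdkn1c, had 1.99 FPKM in LK cells, against 21.2 to 54.0 FPKM in wild-type LSK libraries. The comparison of LK with LSK cells shares its wild-type LSK libraries with that of the genotypes. No agreement between them was tested.

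**Figure D4:**
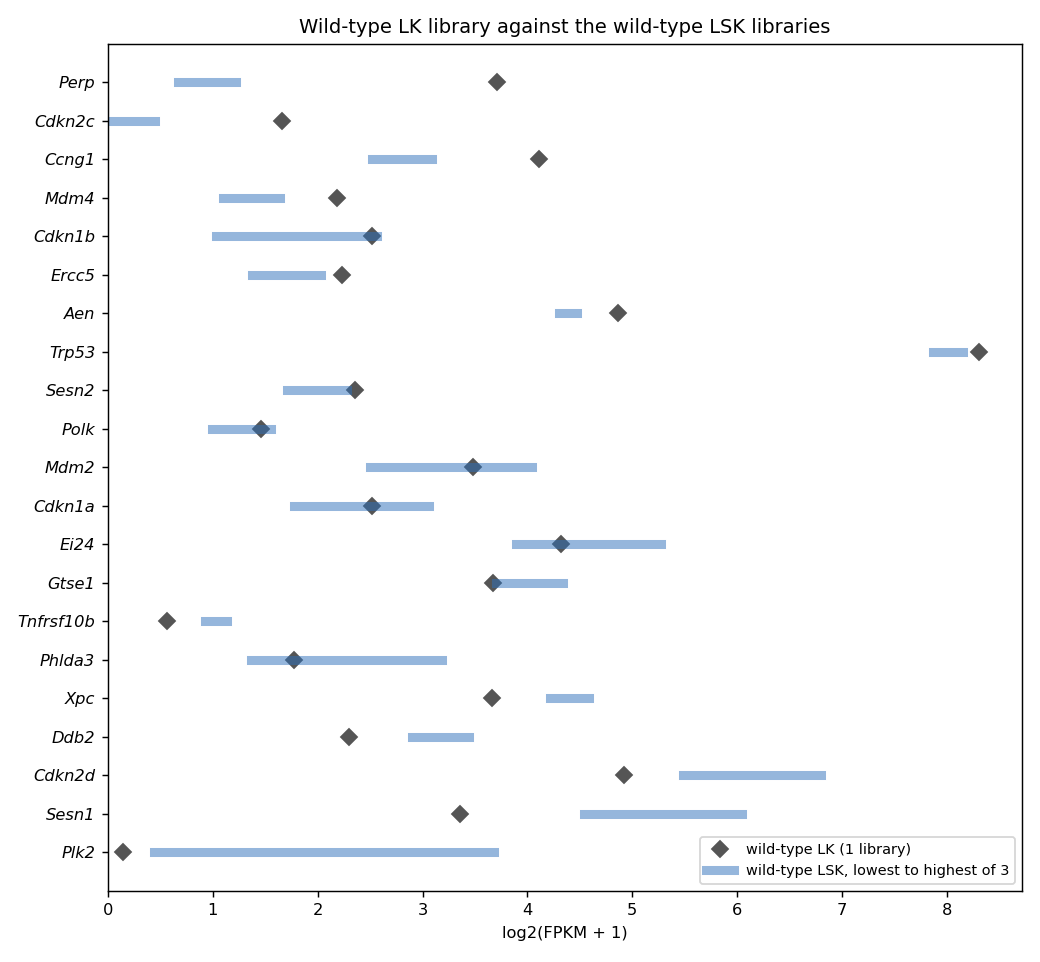
Level of 21 genes in the wild-type LK library (diamonds) and the range of the 3 wild-type LSK libraries (bars), in log2(FPKM + 1), ordered by the difference. Perp, Cdkn2c and Ccng1 lie above the LSK range at the top, and Plk2, Sesn1 and Cdkn2d below it at the bottom.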

How the data were processed

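RNA of sorted LSK and LK cells was sequenced from libraries of the TruSeq RNA kit, per the labels' protocols. TopHat2 2.0.9, Cufflinks 2.1.1 and mm10 are named per the submitters' processing notes, with no roles, and the sources used here give neither the annotation nor the strand setting. The authors deposited 2 values per gene and library, FPKM and a scaled count signal. Between 98.2% and 98.6% of the scaled values above 0 and below 100 steps lay within 0.02 steps of a whole multiple of a step of each library, and the rest were fractional, so no count model was run and reads were estimated by dividing by that step. Intervals and floors cover counting error only where reads are given.

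For the genotypes, log2(FPKM + 1) of every gene averaging 1 FPKM or more in the 6 LSK libraries was fitted in R 4.3.3 by limma 3.58.1 (eBayes with trend and robust, two-sided, Benjamini-Hochberg, threshold 0.05), tested on simulated data. Fold changes on this scale understate the change of low genes. Same-numbered libraries were read as pairs, since their deviations from the group mean correlated at 0.349, 0.332 and 0.645 for numbers 1, 2 and 3. Across numbers 1 and 2 the correlations were 0.213 and 0.159, and combinations of number 3 with another ran from -0.591 to -0.287. The values thus set number 3 apart, while the pairing of numbers 1 and 2 rests on a small difference. What a number shares is not in the labels, and p-values measure the spread between libraries, which may be technical. The blocked fit rests on this reading.

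The genes and lists were chosen with earlier results of these data known. Values in every library are given for CDK inhibitors, Trp53, Mdm2, Mdm4, genes with an unadjusted p under 0.05 in either fit and the 5 with the largest spread. Aen and Trp53inp1 were added after their values were seen, as were the sequences shown. Positions come from RefSeq GRCm38.p6, the assembly called mm10, and exon overlaps from GENCODE on the same assembly. Of the listed symbols, 3 were matched by gene ID, and Pidd1 and Hbb-bt were not analysed here. The separate values of an erythroid marker in the summed list are not reported here. The alternatives tried were the replicate block, another pseudocount (0.1), no filter, the count values, median-of-ratios scaling, and leaving out each library or pair.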

Additional observations from a re-analysis of the deposited data

How the results depend on the processing

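Over all genes limma called 18, and 17 or more with a pseudocount of 0.1, the count values or median-of-ratios scaling. It called 219 with the replicate block and 188, 203 and 196 when the block was combined with a pseudocount of 0.1, with the count values and with median-of-ratios scaling, combinations that were chosen after seeing the data. With no filter on low values it called 0 of 16724 genes without the block and 0 with it (967 and 1398 at an unadjusted limma p under 0.05). Of the p53 targets and CDK inhibitors 0 were called without the block, 1 with the block and with the block on the pseudocount of 0.1 or the count values, and 2 with the block after median-of-ratios scaling, where Cdkn1a joined Perp. Over all genes, leaving out 1 library gave 0 to 4 calls, and leaving out 1 pair in the blocked fit 656, 21 and 201 for pairs 1, 2 and 3. Leaving out 1 library or pair gave 0 to 3 calls among these genes and a median log2 fold change of -0.34 to -0.04. Without pair 1 the blocked fit called Cdkn1a (adjusted p = 0.045), Sesn1 (0.0085) and Ei24 (0.027) and not Perp, and without pair 2 it called none of the 19, with 3 at an unadjusted limma p under 0.05. The blocked fit without a pair rests on 4 libraries.

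The sign of genes near 0 was not stable. Ercc5 was at -0.010 on the count values with and without the block. On leaving out a library, the log2 fold change ran from -0.175 to 0.221 for Ercc5, -0.333 to 0.087 for Mdm4, -0.222 to 0.547 for Cdkn1b, -0.276 to 0.087 for Gtse1 and -0.134 to 0.798 for Phlda3. In the blocked fit Ercc5 was at -0.076 without pair 1 and -0.025 without pair 3, and without pair 2 Cdkn1b was at -0.148 and Gtse1 at 0.099. The other 14 tested genes kept their sign in every setting, Perp between 0.80 and 1.45 and Cdkn1a between 0.53 and 1.22 on leaving out a library or pair. On log2(FPKM + 1) with the filter and all LSK libraries, the replicate block changed no other call among these genes than that of Perp. Genes below about 20 estimated reads, such as Cdkn2c and Gdf15, are limited by depth.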
